A study of Mus musculus with 19 samples.

Results

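Cacng7, Cend1 and Clip3 are 3 genes best known from neurons, followed here in lungs of mouse pups. They were picked from listed neuron-associated genes because each of the 3 nicotine mice at postnatal day 16 had more of the transcript than each of the 5 saccharin mice of that age. They are 3 of the 21839 genes in the count table, and all 3 were among the 15143 genes with enough counts to be tested. Because day 16 values chose them, the day 16 levels below are a description with no test, and tests compare the day 2 mice. Unless stated, these tests come from a fit of all 19 mice, so the day 16 mice enter the spread of each gene.

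The lungs came from wild-type C57BL/6J offspring of dams that drank nicotine at 200 mg/L in water sweetened with 2% saccharin, or water with 2% saccharin and no nicotine. Dams drank it from mating until the end of lactation. At day 2 there were 6 saccharin mice (4 female, 2 male) and 5 nicotine mice (3 female, 2 male). At day 16 there were 5 saccharin mice (2 female, 3 male) and 3 nicotine mice (2 female, 1 male). All 4 groups therefore received saccharin through the dam, and no group drank plain water. The extraction protocol attached to every sample mentions day 2 and no other age, and counts the day 2 mice only, so the ages used here rest on the age field alone. Whole-lung RNA was sequenced, so fewer cells of a type and less RNA per cell cannot be told apart. Which pups shared a dam is not given, and p-values treat each pup as independent.

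Libraries held between 12976749 and 27302477 counts. Genes of the lung itself were abundant, with 8 of 8 lung markers above 1 CPM (counts relative to library size, with edgeR's TMM factors) in mouse 5124 and Sftpc, the surfactant protein C gene, at 28896 CPM there. Skeletal muscle genes, which lung tissue should hold in small amounts, summed to 8732 CPM in 1 nicotine day 2 mouse (5172), against 22.5 in the lowest mouse of that group. Heart muscle genes summed to 4786 CPM in the highest saccharin day 2 mouse. At day 16 the skeletal muscle sum stayed between 21.6 and 35.1 CPM.

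Cacng7 encodes a gamma subunit of the calcium channel family that acts as an auxiliary protein of AMPA-type glutamate receptors and shapes their traffic and gating. Cend1 encodes a membrane protein of neuronal mitochondria that helps neural precursors leave the cell cycle and differentiate. Clip3 encodes a protein with CAP-Gly domains, which bind microtubules in related proteins, and it is found at the trans-Golgi network and the plasma membrane, where it binds the kinase Akt. Nerve cells in the lung are few: small ganglia lie along the airways, nerve fibres enter from outside, and neuroendocrine cells sit in the airway epithelium.

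All 3 genes lie on chromosome 7 (GRCm38, GENCODE M21). Cacng7 (ENSMUSG00000069806) spans chr7:3332955-3368221 on the plus strand, Clip3 (ENSMUSG00000013921) spans chr7:30291728-30308367 on the plus strand, and Cend1 (ENSMUSG00000060240) spans chr7:141426446-141429491 on the minus strand. The stretch just before each RefSeq start, from the RefSeq promoter table of GRCm38.p6, is shown because the 3 genes shared the day 16 pattern and a reader may ask whether they share promoter letters. The RefSeq starts differ from the GENCODE limits above, and motif positions count back from the last letter of each stretch. Capitals mark a motif match, read on either strand. The windows are chr7:3332575-3332824 for Cacng7, chr7:141429563-141429743 for Cend1 (minus strand) and chr7:30291445-30291694 for Clip3. For Cend1 the 69 bases that lie inside the neighbouring gene Slc25a22 are left out.
Cacng7: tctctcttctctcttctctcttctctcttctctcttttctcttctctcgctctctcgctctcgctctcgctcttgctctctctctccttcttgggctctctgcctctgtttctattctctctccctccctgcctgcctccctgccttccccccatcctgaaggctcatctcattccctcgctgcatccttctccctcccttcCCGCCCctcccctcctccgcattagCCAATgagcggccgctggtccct
Cend1: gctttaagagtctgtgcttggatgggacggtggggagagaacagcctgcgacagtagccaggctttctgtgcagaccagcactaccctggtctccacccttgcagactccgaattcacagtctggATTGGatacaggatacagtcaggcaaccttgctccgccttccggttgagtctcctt
Clip3: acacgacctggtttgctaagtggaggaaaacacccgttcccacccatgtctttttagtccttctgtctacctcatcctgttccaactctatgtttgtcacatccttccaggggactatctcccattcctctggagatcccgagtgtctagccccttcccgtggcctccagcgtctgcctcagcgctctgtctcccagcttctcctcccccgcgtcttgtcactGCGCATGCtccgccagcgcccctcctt
No motif of those searched was in all 3. The CCAAT box (CCAAT), found in 33.9% of 32851 promoters of the table, was in Cacng7 at -23 to -19 and in Cend1 at -56 to -52 from the RefSeq start. A GC box (GGGCGG, in 32.7% of promoters) was in Cacng7 at -48 to -43. The NRF1 core (GCGCATGC, in 2.26% of promoters) was in Clip3 at -27 to -20. The letters TATAAA (12.4% of promoters), the E-box CANNTG (66.2%), and the left (TTCAGCACC, 0.301%) and right (GGACAGCGC, 0.304%) parts of the element bound by REST, a repressor of neuronal genes, were in none of the 3 windows. These are matches of letters and say nothing of binding. GC content over 250 bases was 58.0% in Cacng7, 46.0% in Cend1 and 57.2% in Clip3, against a median of 52.4% over all promoters.

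At day 16 the 3 genes were all higher in nicotine than in saccharin lungs, but 1 of the 3 nicotine mice carried most of the difference. Cacng7 was at 86.4 CPM in mouse 5124, 18.4 in mouse 5125 and 16.1 in mouse 5126, against 5.70, 4.64, 5.84, 8.66 and 5.69 CPM in the saccharin mice. Cend1 was at 95.9 CPM in mouse 5124, 3.23 in 5125 and 2.05 in 5126, against 0.333, 0.342, 0.206, 0.465 and 0.265 CPM in the saccharin mice. Clip3 was at 68.6 CPM in mouse 5124, 19.2 in 5125 and 18.5 in 5126, against 8.16, 7.91, 9.54, 7.05 and 13.3 CPM in the saccharin mice. For each gene mouse 5124 stood far above the other 18 mice, while 5125 and 5126 lay close to each other and above all saccharin mice of that age. Mouse 5124 is a female, as is 5125, and 5126 is a male.

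The gap between the lowest nicotine and the highest saccharin mouse at day 16 was 1.86-fold for Cacng7, 4.42-fold for Cend1 and 1.39-fold for Clip3. The rule asks for such a gap, and 186 of the 15143 tested genes (1.23%) had one in this direction, so the gaps are given as a description. By the size of the gap Cend1 ranked 1, Cacng7 5 and Clip3 8 among the tested genes. The mean of the nicotine mice over the mean of the saccharin mice was 6.59-fold for Cacng7, 105-fold for Cend1 and 3.86-fold for Clip3. Without mouse 5124 the same ratios were 2.82-fold, 8.21-fold and 2.05-fold. No gene in the whole table passed an adjusted p under 0.05 at day 16 in the edgeR quasi-likelihood test with Benjamini-Hochberg adjustment, 0% of tested genes in either direction. At an unadjusted p under 0.05 in the edgeR test there were 311 of the 15143 tested genes, a share below 0.05. A share of 0.05 would arise with no difference between the agents, so the 311 are not read as a signal. DESeq2 called 12 genes at an adjusted p under 0.05.

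Without per-gene length, levels of different genes cannot be set side by side, so they were divided by exon length. In the saccharin mice at day 16 Cacng7 and Clip3 were at similar mean levels, 2.50 ± 0.617 and 2.34 ± 0.625 CPM per kilobase (SD, n = 5), and Cend1 was at 0.181 ± 0.0547. In mouse 5124 the order was different. Cend1 was at 54.0 CPM per kilobase, Cacng7 at 35.4 and Clip3 at 17.4. Cend1, which was barely detected elsewhere, was thus the most abundant of the 3 in that mouse. Its raw counts were 2202, 80 and 47 in the 3 nicotine mice at day 16 and 1 to 20 in the other 16 mice.

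**Figure D1:**
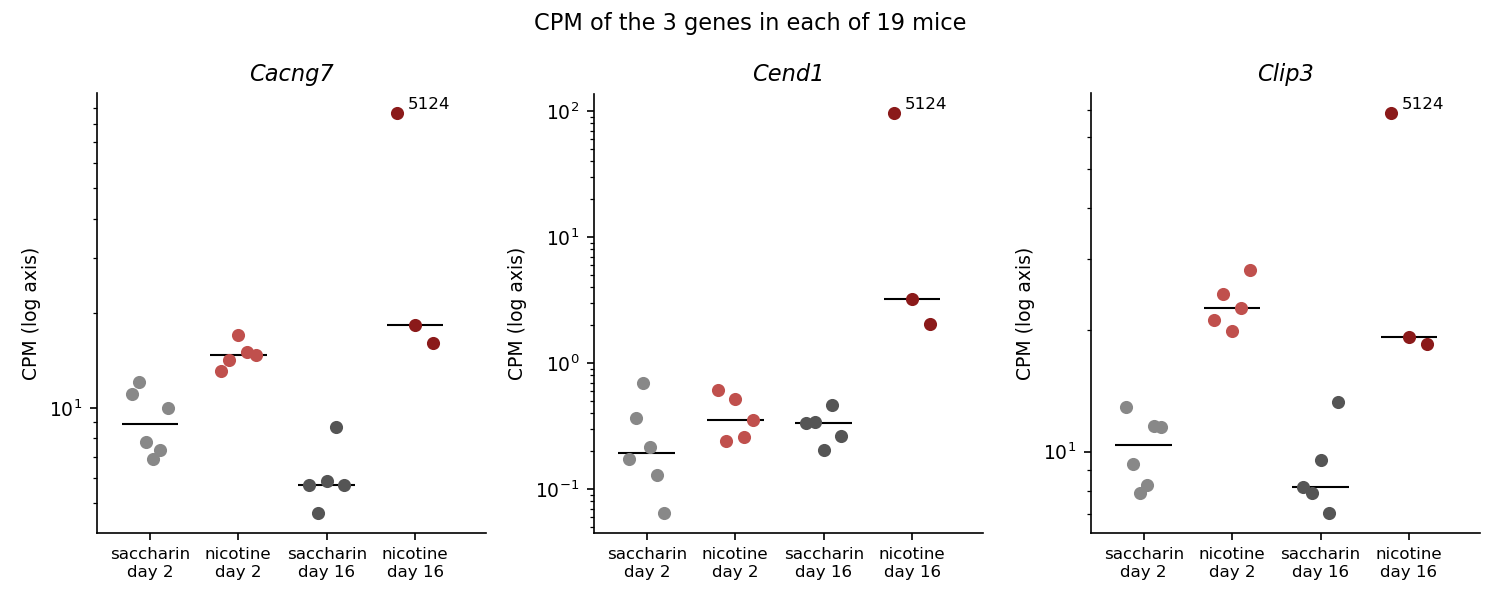
CPM (log axis) of Cacng7, Cend1 and Clip3 in each of 19 mice, with 1 point per mouse and a line at the group median. Mouse 5124 is the highest point in each panel (86.4, 95.9 and 68.6 CPM), and at day 2 the nicotine points lie above the saccharin points for Cacng7 and Clip3 but not for Cend1.

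At day 2, in mice that the choice of genes did not use, Clip3 was higher in nicotine lungs and Cend1 did not pass the test. Clip3 ran from 7.91 to 12.9 CPM (median 10.4) in the 6 saccharin mice, and was at 21.1, 24.5, 19.8, 22.7 and 28.1 CPM in the 5 nicotine mice. Every nicotine mouse was above every saccharin mouse. The means were 10.2 ± 2.04 (SD, n = 6) and 23.2 ± 3.22 CPM (SD, n = 5). Clip3 rose by 1.18 on the log2 scale (SE 0.28), with an adjusted p of 0.00359 in the edgeR quasi-likelihood test with Benjamini-Hochberg adjustment. At this age 19.4% of tested genes were higher and 21.7% lower in nicotine mice at the same threshold, and 13.1% had every nicotine mouse above every saccharin mouse, so a call at day 2 was common. Markers of lung cells differed between the same mice, with 2 of 8 higher and 4 lower. Cdh5 of endothelial cells rose by 0.98 (SE 0.17, edgeR adjusted p 0.000376) and Tbx4 of mesenchyme by 0.61 (SE 0.11, edgeR adjusted p 0.000487). Ager of alveolar type 1 cells fell by 0.95 (SE 0.14, edgeR adjusted p 0.000113) and Scgb1a1 of club cells by 0.76 (SE 0.18, edgeR adjusted p 0.00343). Their part in the Clip3 and Cacng7 values was not tested.

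Cacng7 ran from 6.89 to 12.1 CPM (median 8.87) in the saccharin mice at day 2, and was at 13.1, 14.2, 16.99, 15.1 and 14.8 CPM in the nicotine mice. These groups also did not overlap, by a narrow margin of 1.08-fold between the lowest nicotine and the highest saccharin mouse. The means were 9.18 ± 2.15 (SD, n = 6) and 14.8 ± 1.44 CPM (SD, n = 5), and the log2 fold change was 0.69 (SE 0.33). In the fit of all 19 mice it did not pass, with an edgeR adjusted p of 0.102. That fit shares 1 spread per gene over the 4 groups, and mouse 5124 enters it. Without mouse 5124 the log2 fold change was 0.69 and the edgeR adjusted p 0.00569, and in a fit of the day 2 mice alone they were 0.71 and 0.00401. With mouse 5124 kept and levels corrected for length and GC they were 1.01 and 0.0228, so the call for Cacng7 at day 2 changed with the mice fitted and with that correction.

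Cend1 was at 0.0647 to 0.691 CPM (median 0.195) in the saccharin mice and at 0.607, 0.242, 0.515, 0.257 and 0.354 CPM in the nicotine mice at day 2. The groups overlapped over most of their range. Its log2 fold change was 0.44 (SE 1.01), with an edgeR adjusted p of 0.749. Counts were 1 to 20 per mouse at this age. Without mouse 5124 the log2 fold change was 0.42 and the edgeR adjusted p 0.485. The parts of low counts and of the spread in the missing call were not tested. Cend1 passed the low-count filter with 6 mice above the limit of 0.542 CPM, 3 of them the nicotine mice at day 16.

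The day 2 results were also read with the libraries that hold much muscle left out. Without the 3 day 2 libraries highest in skeletal or heart muscle genes, Clip3 had a log2 fold change of 1.20 with an edgeR adjusted p of 0.0179, and Cacng7 had 0.59 with an adjusted p of 0.278 in a fit that kept mouse 5124. Mouse numbers at day 2 fall into a lower and a higher run, which the labels do not name as a batch. In the lower run Clip3 was at 7.91 to 12.9 CPM in 3 saccharin pups, against 19.8 to 24.5 in 3 pups exposed to nicotine. In the higher run it was at 8.25 to 11.6 CPM in 3 saccharin mice and at 22.7 and 28.1 in 2 nicotine mice. The higher run holds only female saccharin mice and only male nicotine mice, so agent and sex cannot be told apart within it. In the lower run the nicotine mice are all female and the saccharin mice are of both sexes. Within each run each agent holds its own block of consecutive numbers, so agent and block cannot be told apart either. The fit of the lower run alone holds a sex term, so its agent contrast rests on its only saccharin female, mouse 5197. That mouse is also among the 3 muscle-rich libraries left out above. The lower run gave log2 fold changes of 1.48 for Clip3 and 0.94 for Cacng7, shown as effect sizes only. In the higher run alone Clip3 had 1.27 (edgeR adjusted p 0.00723) and Cacng7 had 0.87 (edgeR adjusted p 0.0227). With blocks of consecutive numbers as a random effect over all mice, Clip3 had 1.24 (limma-voom adjusted p 0.0426). Cacng7 had 0.78 in that fit (limma-voom adjusted p 0.271).

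No sex difference passed for Cacng7 or Clip3 at day 2. The female minus male log2 difference was -0.28 (SE 0.15, edgeR adjusted p 0.437) for Cacng7 and -0.18 (SE 0.15, edgeR adjusted p 0.584) for Clip3, in a comparison where 0.0138% of tested genes passed. Cend1 had too few counts to enter that fit of day 2 mice.

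Set in order by group median, Cacng7 was lowest in saccharin mice at day 16 (5.70 CPM), then saccharin at day 2 (8.87), nicotine at day 2 (14.8) and nicotine at day 16 (18.4). Neighbouring groups in this order overlapped within each agent, and the 2 agents did not overlap at either age. Clip3 followed 8.16 CPM in saccharin at day 16, 10.4 in saccharin at day 2, 19.2 in nicotine at day 16 and 22.7 in nicotine at day 2. Mice 5125 and 5126 were at 19.2 and 18.5 CPM of Clip3, just under the nicotine day 2 range of 19.8 to 28.1. For Cend1 the medians were 0.195 CPM in saccharin at day 2, 0.333 in saccharin at day 16 and 0.354 in nicotine at day 2, and all 3 nicotine mice at day 16 lay above every other mouse. Between day 2 and day 16 saccharin mice the mean level changed by a ratio of 0.665 for Cacng7, 1.18 for Cend1 and 0.897 for Clip3, given without a test because day 16 mice chose the genes.

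Few other genes stood out in mouse 5124. Over all genes of the table, 5 were at 1 CPM or more and at least 3-fold above every other mouse there, a count made after the values were seen. Cend1 was 29.7-fold above the next mouse and Cacng7 4.71-fold. The other 3 were Ttbk1, a brain kinase of tau and tubulin, at 8.10 CPM; Phactr3, a regulator of phosphatase and actin, at 19.4 CPM; and H2-Q6, of the class I histocompatibility family, at 11.4 CPM. Clip3 was 2.44-fold above the next mouse and so not among the 5. Reads of H2-Q6 can be shared with near-identical family members, so its value is uncertain. At day 2 Phactr3 ran from 2.96 to 5.37 CPM with nicotine, against 0.129 to 1.92 CPM with saccharin. Such a lack of overlap was seen in 13.1% of tested genes at that age. Phactr3 did not pass at day 2 in the fit of all mice (edgeR adjusted p 0.0507), and did without mouse 5124 (edgeR adjusted p 0.00105). Cend1 and Cacng7 were higher in mice 5125 and 5126 than in every saccharin mouse of day 16 because the rule asked for it. Ttbk1, which the rule did not choose, was so too, and Phactr3 and H2-Q6 were not. All 3 nicotine mice lay above those saccharin mice for 1.23% of tested genes. The count of genes at least 3-fold above every other mouse was 232 in mouse 5172 and 186 in mouse 5324, both of day 2. It was 0 in the other 7 mice of day 16.

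The genes whose levels followed the 3 most closely were named by the highest Pearson r of log2 CPM over 19 mice. These include the day 16 mice whose values chose the 3 genes, so the r among the 3 is partly fixed by that choice and supports nothing. For Cacng7 they were Clip3 (r 0.88), Cend1 (0.81), Ttbk1 (0.80), Kctd17 (0.77) and the ephrin receptor gene Ephb1 (0.73). For Cend1 they were Ttbk1 (0.89), Tmem59l (0.83), Kctd17 (0.82), Cacng7 (0.81) and Cpt1c, a neuronal carnitine palmitoyltransferase (0.80). For Clip3 they were Cacng7 (0.88), the synaptotagmin gene Syt11 (0.81), Dcbld2 (0.80), Ephb1 (0.79) and the scaffold gene Dlg5 (0.78). Over the 18 mice without 5124, the r of Cacng7 with Cend1 was 0.47 and with Ttbk1 0.48. The r of Clip3 with Cacng7 was 0.79 and with Dcbld2 0.85 over those 18 mice. These r values are descriptions over mice of 4 groups that share a scaling, and Cend1 is at few counts in most of them.

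In mouse 5124 these genes were higher by less than the 3 themselves, except Ttbk1. Ttbk1 was at 8.10 CPM in mouse 5124, 0.323 in 5125 and 0.918 in 5126, against 0.0441 to 0.165 in the saccharin mice of day 16. Kctd17 was at 44.4 CPM in mouse 5124, against 22.0 to 28.3 in those saccharin mice. Tmem59l was at 12.1, 9.10 and 8.08 CPM in the 3 nicotine mice, against 5.41 to 6.93. Cpt1c was at 25.1 CPM in mouse 5124, and 12.09 and 13.02 in the others, which lie within the saccharin range of 6.46 to 13.6.

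**Figure D2:**
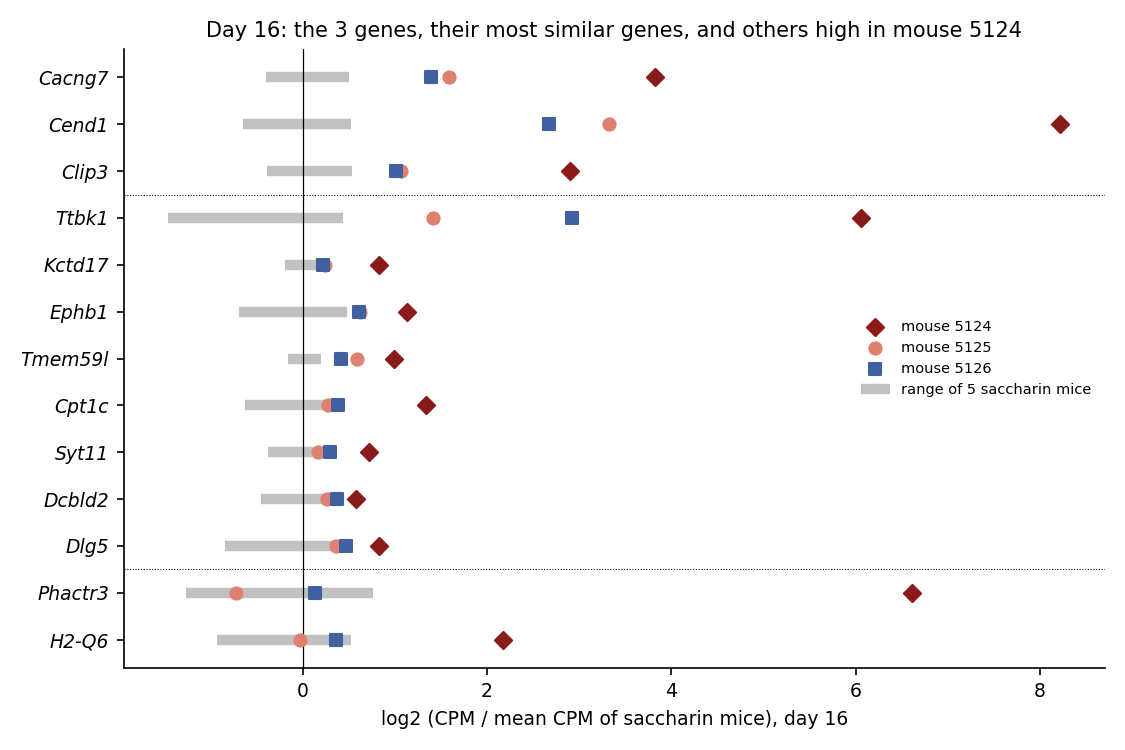
log2 ratio of CPM to the mean of the day 16 saccharin mice for the 3 genes, for their most similar genes and, at the bottom, for other genes high in mouse 5124; symbols are the 3 nicotine mice and grey bars the range of 5 saccharin mice. Mouse 5124 is the highest of the 3 nicotine mice for every gene shown, and for Phactr3 and H2-Q6 the other nicotine mice lie within the saccharin range.

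Of 28 listed genes that define neurons, a list drawn up without Cacng7, Cend1 and Clip3, 22 were tested. None of the 22 had all nicotine mice above all saccharin mice at day 16, where 1.23% of all tested genes did, so a count of 0 is near that share. None of the 22 had its highest level of all mice in 5124. On chromosome 7, 76 of 1165 tested genes did, so a count of 0 of 22 is not read as a result about the list. At day 16, when no tested gene passed, 0 of 22 passed in either direction. Their median log2 fold change was -0.0038, beside -0.0018 for all tested genes. The summed level of the 28 was 300 CPM in mouse 5124, 326 in 5125 and 293 in 5126, and 286 to 400 CPM in the saccharin mice. Stmn2, a stathmin of growing neurites, gave 118 CPM of the sum in mouse 5124. In that mouse 6 of 28 were at 0, namely Elavl3, Snap25, Nefl, Nefm, Ina and Sncb. With Cacng7, Cend1 and Clip3 left out, the genes of this list nearest to the rule's limit were just outside it. The lowest nicotine and the highest saccharin CPM were 6.47 and 6.87 for Map2, 9.02 and 10.1 for L1cam, and 0.404 and 0.465 for Syt1.

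At day 2 the neuron list had calls in both directions, beside 19.4% higher and 21.7% lower of all tested genes, and the higher share was near that background. Of the 22 tested, 5 were higher, among them Gap43, Dcx, Ncam1 and Nsg1, and 1 was lower (Eno2), with a median of 0.07 against -0.02 over all tested genes. Gap43, a growth cone protein, rose by 1.29 on the log2 scale (SE 0.20, edgeR adjusted p 0.000136). Ncam1, a neural cell adhesion gene also expressed by muscle, rose by 1.47 (SE 0.30, edgeR adjusted p 0.00129), and Eno2, a neuronal enolase, fell by 1.01 (SE 0.19, edgeR adjusted p 0.000685). Gap43, Dcx and Ncam1 were the 3 of 22 whose nicotine mice all lay above the saccharin mice, against 13.1% of tested genes.

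Summed genes of other nervous cell types in mouse 5124 lay within the range of the saccharin mice. Autonomic neuron genes summed to 18.6 CPM there against 15.9 to 18.6 CPM in the day 16 saccharin mice, and 7 of 16 in the table were at 0, among them Th, Chrna3 and Npy. Of that list 1 of 7 tested genes, the nicotinic receptor subunit Chrnb4, had all 3 nicotine mice (0.261, 0.283 and 0.175 CPM) above all saccharin mice (at most 0.127). Over all tested genes the share was 1.23%. These Chrnb4 levels lie under the filter limit of 0.542 CPM, and at day 2 its log2 fold change was -0.49 (SE 0.42, edgeR adjusted p 0.355). The 1 gene is thus not read as a result. Central nervous system genes summed to 19.7 CPM in mouse 5124 against 12.8 to 24.0, with Gad2, Neurod6, Tbr1, Olig1 and Olig2 at 0. Schwann cell and glia genes summed to 1570 CPM against 1276 to 1659, and neuroendocrine cell genes to 232 against 185 to 254. None of the genes in these 4 lists passed at day 16, when no tested gene did. At day 2 the autonomic list had 0 higher and 2 lower of 7, the Schwann list 0 and 2 of 12, the neuroendocrine list 2 and 5 of 14, and the central list 1 and 1 of 6. Over all tested genes the shares were 19.4% higher and 21.7% lower, and with lists this short these counts are not read as results about the lists.

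**Figure D3:**
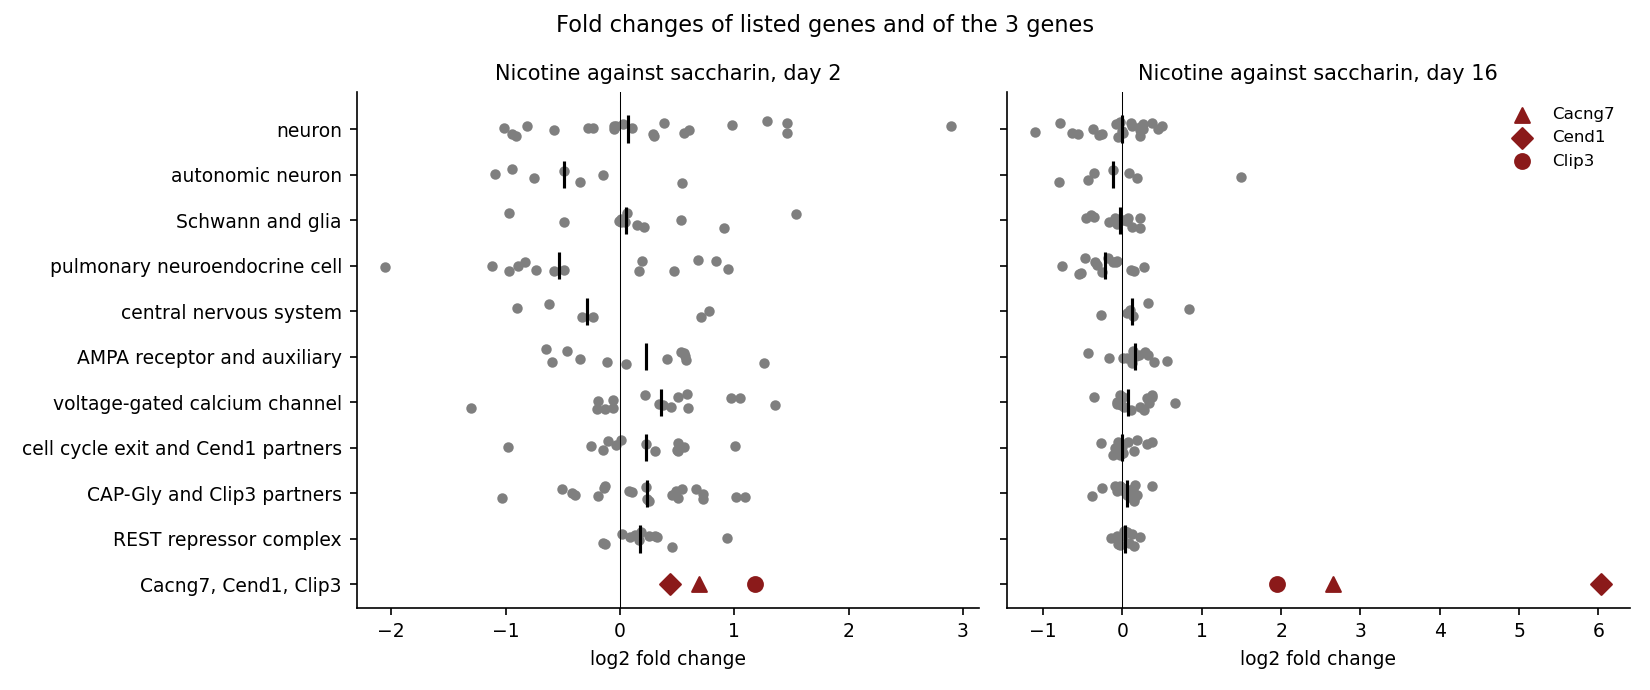
log2 fold change of nicotine against saccharin mice at day 2 (left) and day 16 (right), 1 grey point per tested gene in 10 lists, a bar at each list's median, and the 3 genes in red at the bottom. At day 16 Clip3 (1.95), Cacng7 (2.65) and Cend1 (6.04) lie to the right of every listed gene, a contrast that chose them, and at day 2 they lie among them.

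The partners of the 3 proteins were examined next, beginning with the relatives of Cacng7. Of the 7 other gamma subunit genes, 3 were tested (Cacng1, Cacng4 and Cacng5) and none passed at either age. At day 2, 19.4% of all tested genes were higher and 21.7% lower, so 0 of 3 is not read as a result about this list. No tested gene passed at day 16, so a count of 0 at that age is not a result about this list or those below. The summed level of the 7 was 1.48 CPM in mouse 5124 and 1.56 to 2.51 CPM in the saccharin mice of day 16. Cacng1 reached 25.5 CPM and Cacng6 8.82 CPM in 1 nicotine day 2 mouse, and both encode subunits of skeletal muscle calcium channels or their close relatives. That mouse had the skeletal muscle sum of 8732 CPM, and its part in those values was not tested. Cacng8, the gene next to Cacng7, was at 0.0436 CPM in mouse 5124 and at most 0.221 in any other mouse.

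Of the AMPA receptor genes and their helpers 12 were tested, with 0 passing at day 16, when no tested gene did. At day 2, 2 were higher and 1 lower (median log2 fold change 0.23), against 19.4% higher and 21.7% lower of all tested genes. Dlg4, the postsynaptic scaffold PSD-95, was at 49.5, 32.7 and 42.1 CPM in the nicotine mice of day 16 and 24.7 to 39.1 CPM in the saccharin mice. At day 2 Dlg4 rose by 0.54 (SE 0.13, edgeR adjusted p 0.00434), Nsg1, a receptor trafficking gene, by 0.56 (SE 0.16, edgeR adjusted p 0.00966, also in the neuron list), and Pick1, a receptor binding scaffold, fell by 0.60 (SE 0.14, edgeR adjusted p 0.00244). The receptor subunit Gria1 was at 105 CPM in mouse 5124, the top gene of this list there. Of 16 voltage-gated calcium channel genes, 4 were higher and 1 lower at day 2 (median 0.36), the higher share again near that of all tested genes, and 0 passed at day 16.

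For Cend1, the listed cell cycle exit genes and partners held 13 tested genes, of which 0 passed at day 16, when no tested gene did. At day 2, 5 were higher and 1 lower (median 0.23), beside 19.4% higher and 21.7% lower of all tested genes. Ccnd2, a cyclin D gene that drives entry into the cycle, rose by 1.01 (SE 0.16, edgeR adjusted p 0.000206), and Ccnd1 by 0.51 (SE 0.13, edgeR adjusted p 0.00424). These were also the 2 of 13 whose nicotine mice all lay above the saccharin mice at day 16, where 1.23% of tested genes did, and both by narrow gaps (1.03-fold for Ccnd2 and 1.01-fold for Ccnd1). Rbl2, a pocket protein that restrains the cycle, rose by 0.50 (SE 0.12, edgeR adjusted p 0.00317). The 12 genes of the REST repressor complex had 3 higher and 0 lower at day 2 (median 0.18) and 0 at day 16. These were Kdm5c (0.46), Rcor1 (0.93) and Hdac2 (0.30) on the log2 scale.

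For Clip3, the list of CAP-Gly relatives, microtubule tip proteins and Akt pathway partners held 21 tested genes. At day 16, when no tested gene passed, 0 of them did. At day 2, 8 were higher and 3 lower (median 0.24), beside 19.4% higher and 21.7% lower of all tested genes. The relatives did not move alike. Clip2 rose by 0.46 (SE 0.13, edgeR adjusted p 0.0101), Clip4 fell by 1.03 (SE 0.18, edgeR adjusted p 0.000398), and Clip1 was at a log2 fold change of 0.24 (SE 0.14, edgeR adjusted p 0.188). Mapre2, a microtubule end binding gene, rose by 0.73 (SE 0.11, edgeR adjusted p 0.000135) and Akt2 fell by 0.50 (SE 0.10, edgeR adjusted p 0.000649). At day 16 Clip1, Clip2 and Clip4 were at 160, 89.9 and 21.5 CPM in mouse 5124, each within the range of the saccharin mice.

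None of 5 genes beside the 3 had all nicotine mice above all saccharin mice at day 16. These were Cacng8 (22462 bases after Cacng7), Gatd1 and Slc25a22 (12310 and 253 bases from Cend1), and Thap8 and Alkbh6 (1491 and 350 bases from Clip3). At day 16 Slc25a22, a mitochondrial glutamate carrier gene, was at 33.8 CPM in mouse 5124 and at most 31.1 in any other mouse, a ratio of 1.09. Alkbh6 was at 29.3 CPM in mouse 5124, within the saccharin range of 26.0 to 43.9. At day 2 Alkbh6, beside Clip3, fell by 0.63 (SE 0.19, edgeR adjusted p 0.0123), a direction opposite to that of Clip3. Beside Cend1, Slc25a22 fell by 0.32 (SE 0.11, edgeR adjusted p 0.0253) and Gatd1 by 0.39 (SE 0.15, edgeR adjusted p 0.0388). Of all tested genes 21.7% were lower at that age, so such falls were common. Over chromosome 7 as a whole, 18 of 1165 tested genes (1.55%) had all nicotine mice above all saccharin mice at day 16, against 1.23% of all tested genes. The 18 include Cacng7, Cend1 and Clip3, which the rule chose for this property, so the 2 shares are not read as different.

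**Figure D4:**
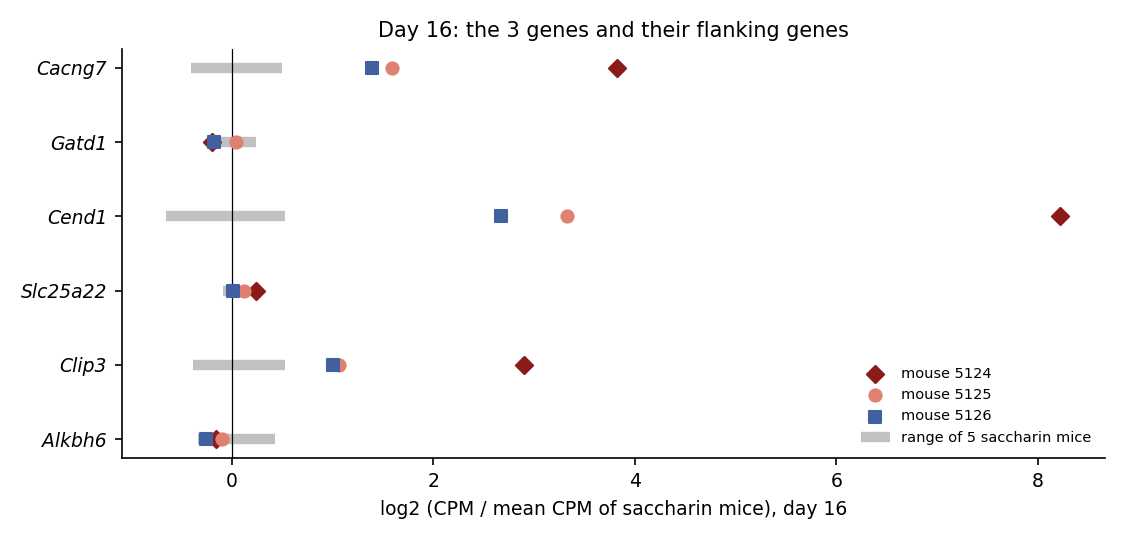
log2 ratio of CPM to the mean of the day 16 saccharin mice for the 3 genes and 3 flanking genes with over 1 CPM in every saccharin mouse of day 16; symbols are the 3 nicotine mice and grey bars the range of 5 saccharin mice. Mouse 5124 lies 14.1-fold, 298-fold and 7.46-fold above the saccharin mean for Cacng7, Cend1 and Clip3, and in or near the saccharin range for Gatd1, Slc25a22 and Alkbh6.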

How the data were processed

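Lung RNA libraries of 19 mice were analysed from a single table of raw counts by Ensembl identifier, as the authors deposited it. Tools listed are featureCounts 1.4.6, CASAVA 1.8.2 and STAR 2.4, with GRCm38 as the build, per the submitters' processing notes. Which annotation release, counting options and strandedness were used is not given in the sources used here. Of 21839 genes in the table, 21628 matched GENCODE M21, which gave symbols, positions and exon lengths. Genes were kept by filterByExpr of edgeR 4.0.16 (minimum count 10, 15143 genes), scaled by TMM and fitted with the robust quasi-likelihood F test in R 4.3.3 on all 19 mice, with 4 age and agent groups and sex as terms. Adjustment was by Benjamini-Hochberg across the tested genes, with a threshold of 0.05. CPM were computed with the TMM factors, with a prior count of 2 before taking log2.

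Alternatives were DESeq2 1.42.0, limma-voom (limma 3.58.1), scaling by RLE or by the upper quartile, other filters, no sex term, a length and GC correction (mgcv 1.9.3), subsets of mice and leaving out each mouse. The 3 genes and the gene lists were chosen with earlier results of these data known. Genes were named by rule: the 3 genes, their family, up to 3 genes of smallest p per list and age, the 5 most similar genes, the flanking genes and those nearest the selection limit. A pooled correlation between the 3 genes at day 2 is not given. For Cacng7 and Clip3 the agent groups formed separate clusters. For Cend1 the groups overlapped, and counts at that age were 1 to 20 per mouse. A flanking gene and a few list members are not reported here. The fitting step was tested on simulated counts.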

Additional observations from a re-analysis of the deposited data

Results flagged for a closer look

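Of 42 groups of mice looked at over 14 genes, 1 held a mouse far from the others. Tmem59l, a gene similar to Cend1 over the mice, was at 9.19 CPM in mouse 5197 of the saccharin day 2 group, against 5.05 to 6.60 CPM in the other 5 mice. About 1 in 20 such groups is picked by chance. The nicotine mice of day 16 number 3 and were not tested this way, so mouse 5124 is not among these.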

How the results depend on the processing

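Clip3 at day 2 stayed higher in nicotine mice and past the threshold under every alternative run (log2 fold change 1.10 to 1.48). The highest of these values, from the lower run alone, rests on the only saccharin female of that run. Cend1 at day 2 passed under none of the alternatives in which it could be fitted (0.20 to 1.45). Cacng7 at day 2 did not pass in the fit of all mice (0.69) but passed with the length and GC correction (1.01), with day 2 mice alone (0.71), with the number run as a term (0.68), in the higher run alone (0.87), and without mice 5124 and 5324 (0.72), an alternative chosen after seeing the data, as was leaving out the muscle-rich libraries. Leaving out 1 mouse at a time, Cacng7 ran from 0.61 to 0.83, Cend1 from 0.20 to 0.91 and Clip3 from 1.10 to 1.28. Of single mice, only leaving out 5124 changed a call of the 3 genes.

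At day 16 the log2 difference ran, over the same omissions, from 1.496 to 3.13 for Cacng7, 2.96 to 7.08 for Cend1 and 1.06 to 2.39 for Clip3, lowest without mouse 5124 for each. Between the ages in saccharin mice, limma-voom with quality weights gave -0.24 for Cacng7 (main -0.57), 1.78 for Cend1 (0.42) and 0.016 for Clip3, which turned its direction (-0.16), and the cause was not tested. The count of genes passing at day 16 was 0, and 2 with RLE scaling, 12 with DESeq2, 1 with the CPM filter, 3 without the sex term, 2 with the length and GC correction, and 0 to 7 when a mouse was left out (7 without mouse 5126, 5 without 5125). At day 2 it was 6223, against 3229 with number blocks, 3818 in females alone and 1737 in the lower run, and 5054 to 6690 when a mouse was left out. The count of genes with all nicotine mice above all saccharin mice was 183 to 651 at day 16 and 1838 to 2442 at day 2 when a mouse was left out. It was 651 without mouse 5125, 497 without 5120, 469 without 5126, 335 without 5114 and 327 without 5124. Cend1 had at most 20 counts in each mouse outside the day 16 nicotine group. No paired analysis was possible because the labels give no replicate numbers that pair mice across groups.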
